A study of Homo sapiens with 6 samples.

Results

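The genes described here encode the enzymes that make cytosolic acetyl-CoA and turn it into saturated, monounsaturated and polyunsaturated fatty acids. They were ACLY, ACSS2, ACACA, ACACB, FASN, ELOVL6, SCD, SCD5, FADS1 and FADS2, chosen by gene symbol, and they make up 10 of the 19903 genes in each expression table. All 10 of these genes had a mean level of at least 1 FPKM (fragments scaled to transcript length and to the total of the library), the limit for entering the tests over 12182 protein-coding genes. The 6 RNA sequencing libraries came from A549, from H1299 and from cells labelled H2030, which are established human lung cancer lines, all labelled as coming from a cell repository and as being at passage 5. In each line, 1 library came from cells with an empty vector and 1 from cells overexpressing NHLRC1, the gene for malin, a ubiquitin ligase known as the partner of laforin in glycogen metabolism. The series title speaks of re-expressing this gene in cancer cells. The labels name neither the type of vector nor whether the cells were pools or clones, and nothing in them says that the cultures were independent.

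Cells build fatty acids in the cytosol from acetyl-CoA, which ATP-citrate lyase cuts from citrate or acetyl-CoA synthetase makes from acetate. Acetyl-CoA carboxylase turns it into malonyl-CoA, fatty acid synthase condenses these units into palmitate, and elongases and desaturases then lengthen the chain and add double bonds. The pathway is under the transcription factor SREBP-1 and is known to run at a high rate in many tumour cells, lung cancer cells among them.

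The values can be compared between genes because FPKM is scaled to transcript length. Each library held an estimated 8300000 to 10700000 fragments, and 11861 to 13179 genes per library reached 1 FPKM. With the empty vector and with malin, NHLRC1 itself stood in A549 at 1.21 and 6.82 FPKM, in H1299 at 2.85 and 119.2, and in the H2030-labelled pair at 0.18 and 3.69, so it was higher in the malin library of every line. The H2030-labelled malin library carries a column headed with the short name of a line derived from human embryonic kidney, where the other 5 tables name the labelled line, so the line differences and the means over lines are also given without it. Summed over 6 epithelial keratin and adhesion genes, levels were 3214 to 3917 FPKM in A549, 952 to 953 FPKM in H1299 and 159 to 183 FPKM in the H2030-labelled pair. Keratins made up most of each sum, and the adhesion genes did not follow it. EPCAM was at 1.75 and 0.95 FPKM in A549, 0.17 and 0.19 in H1299, and 8.55 and 5.41 in the H2030-labelled pair. CDH1 was at 3.27 and 1.67, 0.02 and 0, and 2.56 and 2.71 FPKM. Over 6 lung epithelial genes the sums were 17.0 to 18.3, 1.64 to 1.98 and 7.96 to 10.2 FPKM, mostly FOXA1 and FOXA2 in A549. The lung factor NKX2-1 was at 0 in both A549 libraries, 0.77 and 0.6 FPKM in H1299, and 1.85 and 3.78 in the H2030-labelled pair. NAPSA of the same list was at 1.36 and 0.46 FPKM in that pair. Over 7 genes reported for embryonic kidney lines the sums were 31.7 to 32.4, 54.5 to 55.1 and 79.9 to 109 FPKM. NEFL and NEFM, neurofilament genes, made up most of the last sum, at 23.43 and 30.53 FPKM with the empty vector and 31.69 and 52.62 with malin, whereas INA, PAX2 and EYA1 of the same list were lower in the malin library of that pair (9.3 and 6.12, 1.57 and 1.02, and 2 and 1.36 FPKM) and INA was highest in H1299. Fibroblast genes summed to 12.08 and 15.33 FPKM in the H2030-labelled pair and to at most 2.35 FPKM in the other 4 libraries, and immune genes to between 6.93 and 55.6 FPKM. Endothelial and adipocyte genes summed to less than 1 FPKM in every library.

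The lines differed in which of these enzymes they held at a high level. Several were higher with the malin vector in the H2030-labelled pair, where no test was possible. A549 had the highest ACLY, FADS1, FADS2 and ACACB, H1299 the highest SCD and ACSS2, and the H2030-labelled pair the highest SCD5. With malin, ACLY was 1.68 times, SCD 1.71 times and FASN 1.503 times its empty-vector level in the H2030-labelled pair, whereas in A549 SCD was 0.750 times and FADS2 0.806 times. Averaged over the 3 lines, none of the 10 genes passed the limma test for the vector (0 of 12182 genes did, 0%). The overexpressed gene NHLRC1 did not pass either (log2 difference 2.93, limma adjusted p = 0.927), so a gene that failed this test cannot be called unchanged. Bulk RNA cannot tell a change in every cell from a change in the share of cells with more of a transcript. All p-values rest on how the difference between the 2 libraries of a line varied over the 3 lines. In limma, a gene's own spread has 2 residual degrees of freedom. It is combined with a spread fitted over all genes by level, which has 3.9 prior degrees of freedom. Technical variation and a response that differs between lines cannot be told apart in either spread.

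**Figure D1:**
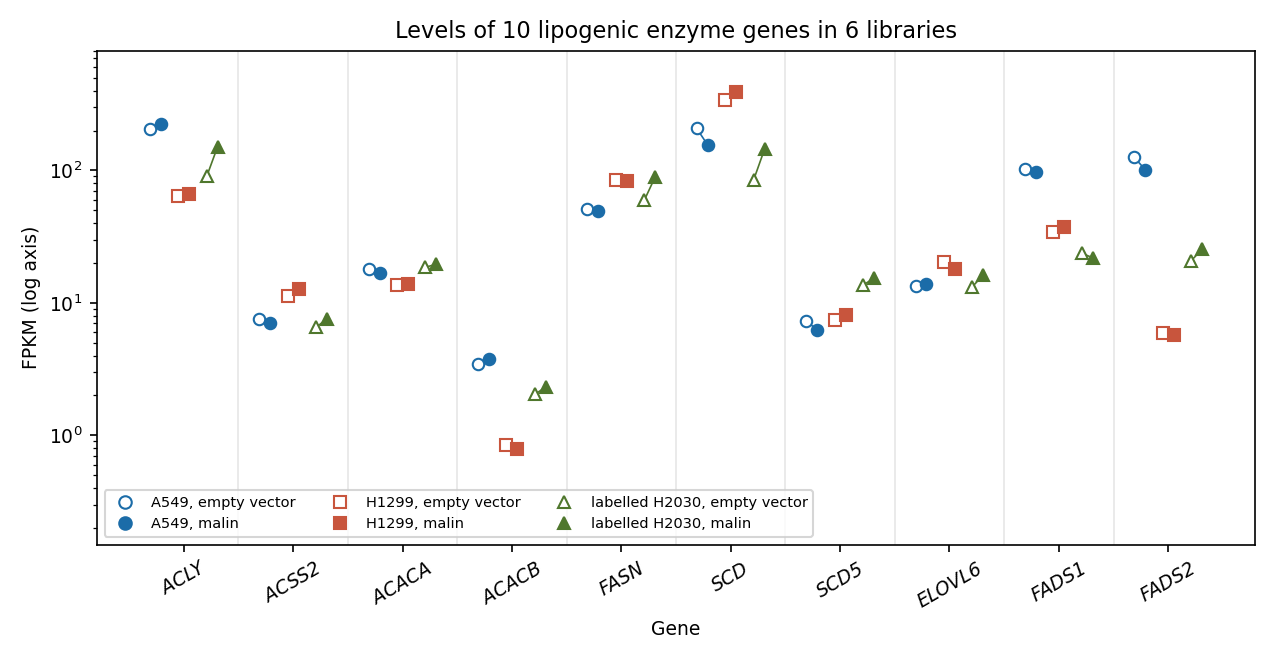
Level of each of the 10 enzyme genes (FPKM, log axis) in the 6 libraries, with open symbols for the empty vector, filled symbols for malin, and a line joining the pair of each cell line. FADS2 spans 5.69 to 125.5 FPKM between lines, ACACA only 13.69 to 19.61 FPKM.

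ACLY, which cleaves citrate exported from mitochondria into acetyl-CoA and oxaloacetate (chr17:41866908-41930542, minus strand, GENCODE 29 on GRCh38), was in A549 at 205.71 FPKM with the empty and 222.51 with the malin vector, at 64.07 and 65.98 in H1299, and at 89.97 and 151.31 in the H2030-labelled pair. The A549 libraries were highest and the H1299 libraries lowest, with no overlap between any of the lines, and ACLY lay between the 89.7 and 97.7 percentile of the genes tested in every library. Within lines the ratio of malin to empty vector was 1.08 in A549 (95% interval 1.05 to 1.11), 1.03 in H1299 (0.978 to 1.08) and 1.68 in the H2030-labelled pair (1.61 to 1.75). These intervals are exact binomial ones on estimated fragment numbers and cover counting error only. ACLY was the only gene of the 10 with a higher value in the malin library of all 3 lines. Its mean log2 difference over the lines was 0.30 ± 0.39 (SD, n = 3), with an exact two-sided sign-flip permutation p = 0.25, the smallest that 3 pairs allow, and a limma adjusted p of 0.927. Without the H2030-labelled pair the mean was 0.08.

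Between lines, on the log2(FPKM+1) scale, ACLY was 1.70 ± 0.18 (SE) higher in A549 than in H1299 (limma, Benjamini-Hochberg adjusted p = 0.000557). It was 0.87 ± 0.18 higher in A549 than in the H2030-labelled pair (limma adjusted p = 0.00633), a call lost without the A549 empty-vector library (0.0603), and 0.54 higher without the H2030-labelled empty-vector library. It was lower in H1299 than in that pair, with a log2 difference of -0.83 ± 0.18 (limma adjusted p = 0.00769). That call was lost without the H1299 malin library (0.0814), and the difference was -0.50 without the H2030-labelled malin library.

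ACSS2, the cytosolic and nuclear enzyme that makes acetyl-CoA from acetate (chr20:34872146-34927962, plus strand), was at 7.55 and 7.07 FPKM in A549 with the empty and malin vector, 11.29 and 12.65 in H1299, and 6.54 and 7.59 in the H2030-labelled pair. Both H1299 libraries lay above the other 4, among which A549 and the H2030-labelled pair overlapped. The malin ratios of 0.936, 1.12 and 1.16 in A549, H1299 and the H2030-labelled pair all had counting intervals that held 1. ACSS2 was lower in A549 than in H1299, with a log2 difference of -0.64 ± 0.13 (limma adjusted p = 0.00735), and higher in H1299 than in the H2030-labelled pair by 0.69 ± 0.13 (limma adjusted p = 0.00502). The first call was lost without the A549 malin library or either H1299 library (adjusted p up to 0.108), and the other without either H1299 library (up to 0.0731). The ratio of ACLY to ACSS2 was 27.2 and 31.5 in A549, 5.67 and 5.22 in H1299, and 13.8 and 19.9 in the H2030-labelled pair, so citrate-cleaving transcript exceeded acetate-activating transcript in all 6 libraries and by most in A549.

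ACACA encodes the cytosolic acetyl-CoA carboxylase that makes malonyl-CoA for chain synthesis (chr17:37084988-37406818, minus strand). It had the narrowest range of the 10 genes, at 17.98 and 16.89 FPKM in A549, 13.69 and 14 in H1299, and 18.57 and 19.61 in the H2030-labelled pair. The H1299 libraries were lowest, and no lines overlapped. ACACA was 0.31 ± 0.11 higher in A549 than in H1299 on the log2 scale (limma adjusted p = 0.0482), a call lost without any 1 of those 4 libraries (adjusted p up to 0.361), and also with no filter (0.0539), after quantile normalization (0.0532) and with no intensity trend (0.0565). In H1299 it was lower than in the H2030-labelled pair, with a log2 difference of -0.44 ± 0.11 (limma adjusted p = 0.014). That call was lost without either H1299 library (up to 0.144) and after median-of-ratios scaling, where the difference was -0.22 (limma adjusted p = 0.138), or after quantile normalization (0.0597). The malin ratios were 0.939, 1.02 and 1.06, each with an interval holding 1.

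ACACB encodes the carboxylase of the mitochondrial outer membrane, whose malonyl-CoA restrains entry of fatty acids into mitochondria (chr12:109116595-109268226, plus strand). Its levels were 3.47 and 3.76 FPKM in A549, 0.84 and 0.79 in H1299, and 2.04 and 2.32 in the H2030-labelled pair. It had the lowest level of the 10 genes in every library, between the 7.7 and 25.3 percentile of genes tested, and rested on an estimated 83 and 72 fragments in the H1299 libraries. ACACB was 1.35 ± 0.14 higher in A549 than in H1299 on the log2(FPKM+1) scale (limma adjusted p = 0.00052), a scale that understates changes at such levels. With a pseudocount of 0.1 the same difference was 2.02, and with 5 it was 0.57. The log2 difference was 0.54 ± 0.14 between A549 and the H2030-labelled pair (limma adjusted p = 0.0152, lost without either A549 library, up to 0.109). Between H1299 and that pair it was -0.81 ± 0.14 (limma adjusted p = 0.00317), and -0.20 after quantile normalization (limma adjusted p = 0.302). The ratio of ACACA to ACACB was thus 4.49 to 5.18 in A549, 8.45 to 9.10 in the H2030-labelled pair, and 16.3 to 17.7 in H1299. The malin ratios of ACACB, 1.08, 0.940 and 1.14, all had intervals holding 1.

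FASN, the multifunctional enzyme that makes palmitate from acetyl-CoA and malonyl-CoA (chr17:82078333-82098332, minus strand), was at 51.54 and 49.17 FPKM in A549, 84.03 and 83.41 in H1299, and 59.43 and 89.34 in the H2030-labelled pair. The A549 libraries were lowest, and the H2030-labelled pair straddled the H1299 libraries. The malin ratio was 0.954 in A549 (95% counting interval 0.915 to 0.995), 0.993 in H1299 (0.961 to 1.03) and 1.503 in the H2030-labelled pair (1.45 to 1.56), so the intervals of A549 and the H2030-labelled pair lay on opposite sides of 1. The mean log2 difference was 0.17 ± 0.36 (SD, n = 3; limma adjusted p = 0.927), and it was -0.04 without the H2030-labelled pair.

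FASN was lower in A549 than in H1299, with a log2 difference of -0.72 ± 0.17 (limma adjusted p = 0.0123). That call was lost without the A549 malin or the H1299 empty-vector library (adjusted p up to 0.116). Against the H2030-labelled pair the difference of A549 was -0.53 ± 0.17 (limma adjusted p = 0.0349). This value moved with several settings. It was -0.20 after median-of-ratios scaling (adjusted p = 0.364), -0.22 without the H2030-labelled malin library (0.0237), -0.83 without its empty-vector partner (2.24e-05), -0.35 without the A549 malin library (0.26), and the call was also lost without the A549 empty-vector library or either H1299 library, with no filter (0.0701) and with no intensity trend (0.0507). FASN exceeded ACACA in every library, by 2.87 to 2.91 times in A549, 5.96 to 6.14 times in H1299, and 3.20 and 4.56 times with the empty and malin vector in the H2030-labelled pair.

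ELOVL6, which elongates palmitate toward stearate (chr4:110045846-110199199, minus strand), was at 13.33 and 13.83 FPKM in A549, 20.31 and 17.87 in H1299, and 13.28 and 16.22 in the H2030-labelled pair. The H1299 libraries were highest and the A549 values fell inside the range of the H2030-labelled pair. The malin ratio was 0.880 in H1299 (95% counting interval 0.785 to 0.987), 1.22 in the H2030-labelled pair (1.06 to 1.41) and 1.04 in A549 (0.907 to 1.19). The log2 difference of A549 against H1299 was -0.46 ± 0.14 (limma adjusted p = 0.03). It lost its call after median-of-ratios scaling (adjusted p = 0.0697), after quantile normalization (0.061), with no filter (0.053) and without any 1 of those 4 libraries (up to 0.308, with -0.29 when the H1299 empty-vector library was left out). The difference of 0.35 between H1299 and the H2030-labelled pair missed the threshold (limma adjusted p = 0.0661). It passed, at 0.57, after median-of-ratios scaling (0.0154), at 0.49 after quantile normalization (0.0372) and at 0.52 without the H2030-labelled malin library (0.00535). Without a vector term it also passed (0.0452).

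SCD encodes the stearoyl-CoA desaturase that makes oleate and palmitoleate (chr10:100347124-100364834, plus strand). In A549 it was at 207.18 FPKM with the empty and 155.46 with the malin vector, at 338.15 and 390.78 in H1299, and at 84.79 and 144.81 in the H2030-labelled pair. It was the most abundant of the 10 transcripts in A549 with the empty vector and in both H1299 libraries, at the 98.4 and 98.7 percentile of genes tested in the latter, and ACLY ranked first in the other 3 libraries. SCD was also the gene whose malin ratio varied most between lines, at 0.750 in A549 (95% counting interval 0.730 to 0.772), 1.16 in H1299 (1.13 to 1.18) and 1.71 in the H2030-labelled pair (1.64 to 1.78). Among all genes tested these log2 differences lay at the 1.8, 92.3 and 98.3 percentile of their line. The mean over lines was 0.19 ± 0.59 (SD, n = 3; limma adjusted p = 0.927), or -0.10 without the H2030-labelled pair.

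Between lines the log2 difference of SCD was -1.01 ± 0.26 for A549 against H1299 (limma adjusted p = 0.0156). It was -0.56 without the A549 malin library, and the call was lost without that library or either H1299 library (adjusted p up to 0.098). H1299 exceeded the H2030-labelled pair by 1.70 ± 0.26 (limma adjusted p = 0.00183), and by 2.14 without the malin library of that pair. The difference of 0.69 between A549 and the H2030-labelled pair missed the threshold (limma adjusted p = 0.0532). It passed, at 1.02, after median-of-ratios scaling (0.0151) and, at 1.12, without the H2030-labelled malin library (0.000454). It also passed, at 1.14, without the A549 malin library (0.00983).

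SCD5, a second desaturase isoenzyme of primates and some other mammals (chr4:82629539-82798857, minus strand), was at 7.28 and 6.29 FPKM in A549, 7.40 and 8.12 in H1299, and 13.60 and 15.38 in the H2030-labelled pair. The H2030-labelled pair lay above the other 4 libraries, which were close to each other. The log2 difference was -0.99 ± 0.14 for A549 against that pair (limma adjusted p = 0.00134) and -0.82 ± 0.14 for H1299 against it (limma adjusted p = 0.00309), and each kept its call without any 1 library. The malin ratios of 0.864, 1.10 and 1.13 had intervals holding 1. The ratio of SCD to SCD5 therefore ran from 6.23 and 9.42 in the H2030-labelled pair through 28.5 and 24.7 in A549 to 45.7 and 48.1 in H1299.

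FADS1 and FADS2 insert double bonds in the synthesis of polyunsaturated fatty acids and lie on opposite strands of 1 locus (chr11:61799625-61829318, minus, and chr11:61792980-61867354, plus). Their annotated spans share 29694 bases, and the sources used here do not say whether reads were counted by strand, so fragments from the shared stretch cannot be assigned with certainty. FADS1 was at 102.24 and 96.63 FPKM in A549, 34.25 and 37.50 in H1299, and 23.73 and 21.88 in the H2030-labelled pair. The lines did not overlap, and A549 exceeded H1299 by 1.45 ± 0.10 (limma adjusted p = 0.000149) and the H2030-labelled pair by 2.08 ± 0.10 (limma adjusted p = 3.54e-05) on the log2 scale. The difference of 0.63 ± 0.10 between H1299 and that pair (limma adjusted p = 0.00273) lost its call without the H1299 malin library (0.0569). The malin ratio of FADS1 was 0.945 in A549 (95% counting interval 0.907 to 0.984), 1.09 in H1299 (1.02 to 1.17) and 0.922 in the H2030-labelled pair (0.841 to 1.01).

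FADS2 had the widest range between lines, at 125.5 and 101.1 FPKM in A549, 5.94 and 5.69 in H1299, and 20.83 and 25.37 in the H2030-labelled pair. A549 exceeded H1299 by 4.06 ± 0.15 (limma adjusted p = 1.75e-05) and the H2030-labelled pair by 2.24 ± 0.15 (limma adjusted p = 9.36e-05), and the difference of H1299 against that pair was -1.82 ± 0.15 (limma adjusted p = 0.000205). These 3 calls were kept without any 1 library. With malin, FADS2 was 0.806 times its empty-vector level in A549 (95% counting interval 0.772 to 0.841), 0.958 times in H1299 (0.790 to 1.16) and 1.22 times in the H2030-labelled pair (1.10 to 1.35). The ratio of FADS1 to FADS2 was 5.77 and 6.59 in H1299 and between 0.815 and 1.14 in the other 4 libraries.

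**Figure D2:**
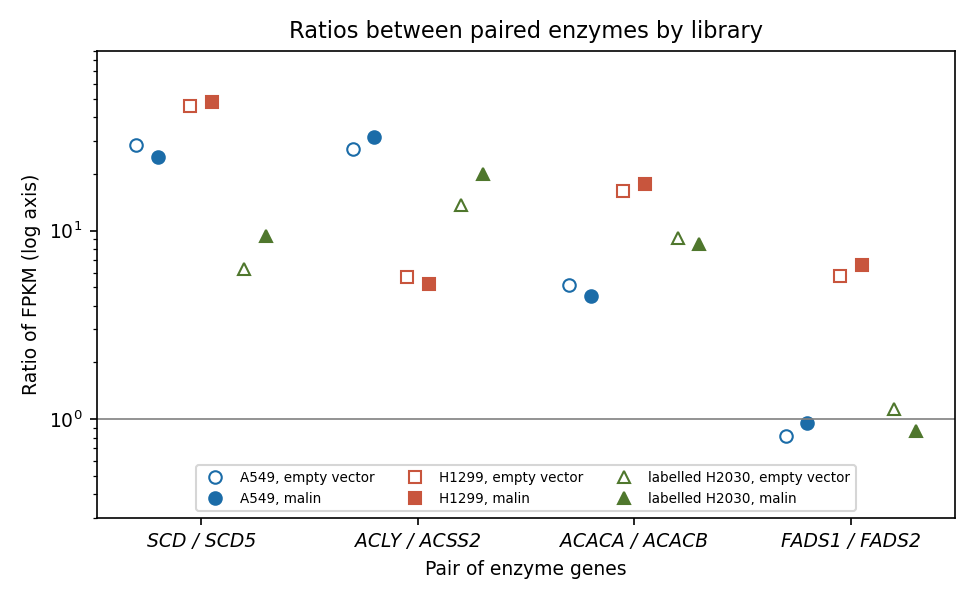
Ratio of FPKM between related enzymes (log axis) in each library, for SCD to SCD5, ACLY to ACSS2, ACACA to ACACB, and FADS1 to FADS2, which act at successive steps. The lines separate in each of the first 3 ratios, and H1299 stands apart at 5.77 and 6.59 for FADS1 to FADS2.

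Of the 10 genes, 3 were higher and 7 lower with malin in A549, 6 were higher and 4 lower in H1299, and 9 were higher and 1 lower in the H2030-labelled pair. The median log2 differences were -0.08, 0.04 and 0.23, beside 0.00, 0.005 and -0.03 over all genes tested. Of the 12182 genes tested, 6034 were higher and 5939 lower in A549, 6273 and 5694 in H1299, and 5597 and 6476 in the H2030-labelled pair. In A549 no member was at least 1.5 times higher or lower on the log2(FPKM+1) scale, where 0.542% and 0.583% of all genes tested were, and in H1299 none was either, where the shares were 0.328% and 0.148%. In the H2030-labelled pair, 2 of the 10 (ACLY and SCD) were at least 1.5 times higher, against 4.28% of all genes tested, and none was at least 1.5 times lower, against 7.33%. FASN, with a log2 difference of 0.58, lay just outside, and was counted with a pseudocount of 0.1 or after either rescaling, which made the number 3. The log2 differences of all genes spread more in this pair (SD 0.40) than in A549 (0.18) or H1299 (0.16). The difference of this pair uses the library with the differing column heading and cannot be given without it. With 1 library per line and vector, neither a difference within a line nor one between lines in the response can be tested.

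**Figure D3:**
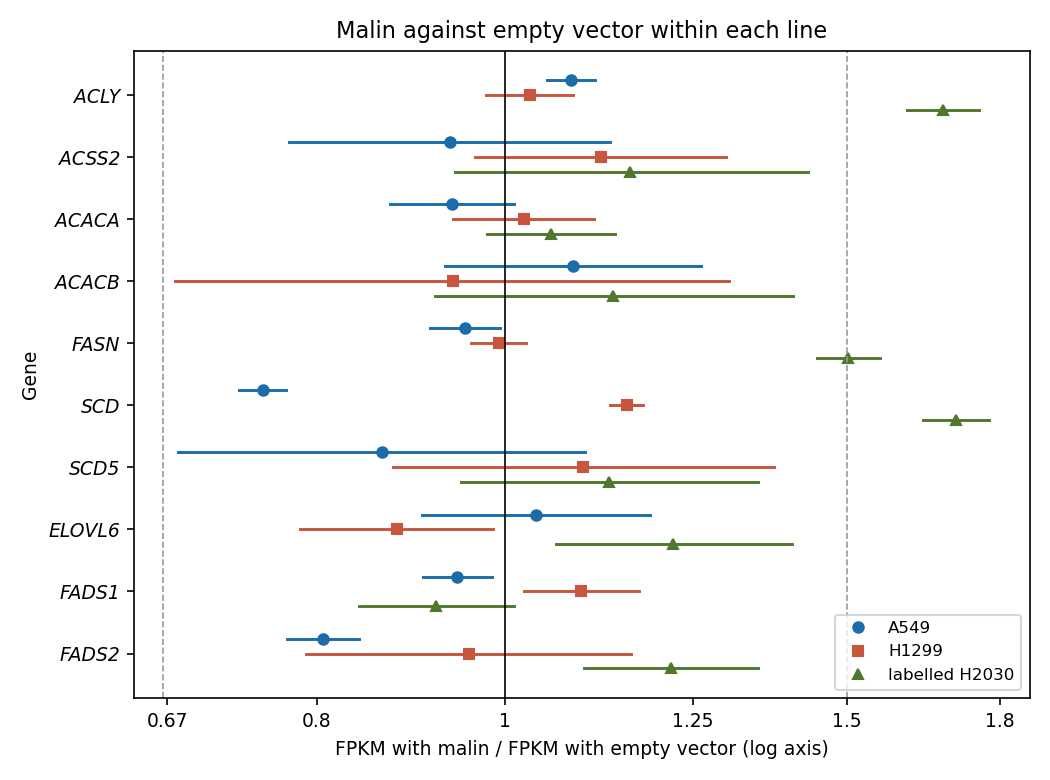
Ratio of FPKM with malin to FPKM with the empty vector (log axis) for each gene and line, with 95% counting intervals as bars and dashed lines at a change of 1.5 times. SCD lies at 0.750, 1.16 and 1.71 in A549, H1299 and the H2030-labelled pair, and ACLY and SCD lie above the upper line in that pair, with FASN on it at 1.503.

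Over the 3 lines, the mean log2 differences of the 10 genes ran from -0.03 for FADS2 to 0.30 for ACLY, and every limma adjusted p was 0.927 or higher. Without the H2030-labelled pair the means were 0.034 for ACSS2, -0.028 for ACACA, 0.026 for ACACB, -0.033 for SCD5, -0.063 for ELOVL6, 0.023 for FADS1 and -0.18 for FADS2, beside those given above for ACLY, FASN and SCD. Exact sign-flip permutation p-values could not go below 0.25 with 3 pairs. Over all genes 213 (1.75%) had an unadjusted p under 0.05, and none of the 10 members was among them. Left to A549 and H1299 alone, limma called 1 gene, SULT1A3 (log2 difference -2.11, adjusted p = 0.0178), chosen here after its value was seen. SULT1A3 has a near-identical neighbouring copy, which makes its value uncertain.

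For ACLY and SCD, the genes counted past 1.5 times in the H2030-labelled pair on the log2(FPKM+1) scale, the bases upstream of the start are shown so that the CCAAT and GC-box letters common in lipogenic promoters can be read. They come from the RefSeq table of GRCh38.p14, written 5′ to 3′ on the gene's strand, with capitals marking CCAAT or its complement ATTGG, the letters bound by NF-Y, and GGGCGG or its complement CCGCCC, the GC box bound by Sp factors. The ACLY stretch is chr17:41919023-41919272 (minus strand, ending at the transcript start, inside the annotated gene span because a longer transcript begins further upstream, with no annotated UTR in it). The SCD stretch is chr10:100346983-100347123 (plus strand, ending where the GENCODE transcript begins).
ACLY: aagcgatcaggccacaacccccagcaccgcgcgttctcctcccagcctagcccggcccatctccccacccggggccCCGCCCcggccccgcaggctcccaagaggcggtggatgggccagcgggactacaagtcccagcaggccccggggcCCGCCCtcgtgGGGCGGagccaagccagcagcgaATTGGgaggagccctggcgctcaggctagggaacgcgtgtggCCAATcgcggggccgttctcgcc
SCD: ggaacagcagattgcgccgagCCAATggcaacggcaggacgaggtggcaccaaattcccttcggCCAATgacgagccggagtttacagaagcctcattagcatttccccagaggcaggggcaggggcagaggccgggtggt
Each stretch holds 2 CCAAT motifs, and that of ACLY also 3 GC boxes, where the printed SCD stretch has 0.

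In the 250 bases upstream of the RefSeq start, CCAAT or ATTGG was present in 4 of the 7 members with a window near an annotated start (ACLY, ACACA, SCD and SCD5), against 32% of all 35116 windows in the table. The ACACA window lies at the most downstream of its annotated starts. FASN had no window, and those of ACACB and FADS2 lay 15282 and 11357 bases from their annotated starts, so none of these genes is covered. GGGCGG or CCGCCC was present in 6 of 7 (ACLY, ACSS2, SCD, SCD5, ELOVL6 and FADS1), against 42.6%. The palindrome CACGTG was in 0 of 7 (6.3% of all windows), as was TCACNCCAC or its complement GTGGNGTGA, letters of a sterol element (0.9%). All motifs were searched on both strands. These are matches of letters and not measured binding.

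Between A549 and H1299, 9 of the 10 genes passed the limma test (5 higher and 4 lower in A549), against 61.6% of all genes tested. Between A549 and the H2030-labelled pair, 6 passed (4 higher and 2 lower in A549), against 67%, and between H1299 and that pair 8 passed (3 higher and 5 lower in H1299), against 64.7%. A call between lines was common among all genes, so these counts say nothing particular about the members. Without the H2030-labelled malin library, A549 and H1299 were each compared with the remaining H2030-labelled library. The log2 differences of A549 against it were then 1.20 for ACLY, 0.12 for ACSS2, -0.073 for ACACA, 0.59 for ACACB, -0.22 for FASN, 0.061 for ELOVL6, 1.12 for SCD, -0.89 for SCD5, 2.01 for FADS1 and 2.47 for FADS2. Those of H1299 against it were -0.50, 0.76, -0.38, -0.76, 0.51, 0.52, 2.14, -0.72, 0.56 and -1.59 in the same order of genes. Leaving out 1 library moved the number of calls both among the members and over all genes. Of the 23 calls, 11 held without any 1 library and also after median-of-ratios scaling, and of these ACACB between H1299 and the H2030-labelled pair was lost after quantile normalization (limma adjusted p = 0.302). The 11 were ACLY between A549 and H1299, ACACB between H1299 and each other line, SCD between H1299 and the H2030-labelled pair, SCD5 between that pair and each other line, FADS1 between A549 and each other line, and FADS2 in all 3 comparisons.

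Scaling shifted the median of all genes. Median-of-ratios scaling moved it by 0.08 for A549 against H1299, 0.29 for A549 against the H2030-labelled pair, and 0.20 for H1299 against that pair on the log2 scale. As deposited, 44.1%, 32.9% and 36.8% of all calls in these 3 comparisons were higher in the first-named line, against 49.8%, 50.9% and 49.2% after that scaling and 46.0%, 45.1% and 46.9% after quantile normalization. The order of the lines did not change for FADS2, whose scaled differences were 4.16, 2.56 and -1.60, or for SCD, at -0.92, 1.02 and 1.93. ACACA and ELOVL6 changed sign between A549 and the H2030-labelled pair, from -0.12 to 0.19 and from -0.11 to 0.20, and neither passed the test on either scale.

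Lists of other genes around the pathway were summarised by the same counts, and no gene of any list passed the limma test for malin over the 3 lines. Of 12 regulators of the SREBP, ChREBP and LXR systems, 4 were higher and 1 lower with malin in all 3 lines, where 1345 and 1380 of the 12182 genes tested were. INSIG1, which holds SREBP in the endoplasmic reticulum and is itself an SREBP target, was at 14.64 and 20.31 FPKM in A549, 36.03 and 41.77 in H1299, and 16.13 and 64.49 in the H2030-labelled pair. NR1H3, the nuclear receptor LXR alpha, was lower with malin in each line, at 5.39 and 4.19, 3.78 and 3.19, and 7.68 and 3.73 FPKM. USF1, a factor that binds lipogenic promoters, was at 17.76 and 18.12, 18.99 and 22.99, and 13.39 and 17.16 FPKM. Their limma adjusted p-values were 0.927 or higher, although INSIG1 and NR1H3 had unadjusted limma p-values of 0.0379 and 0.0313.

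Of 13 tested genes of cholesterol synthesis and uptake, 7 were higher with malin in all 3 lines and none was lower in all 3, beside 1345 and 1380 of all 12182 genes tested. All 13 were higher in the H2030-labelled pair, where 5597 of the 12182 genes tested were, and in H1299, where 6273 were. In A549, 7 were higher and 6 lower, beside 6034 and 5939 of all genes tested. The median log2 differences of the 13 were 0.00, 0.12 and 0.64 in A549, H1299 and the H2030-labelled pair. In that pair 7 of the 13 were at least 1.5 times higher, where 4.28% of all genes tested were. HMGCS1, which makes the precursor of mevalonate, was at 27.85 and 31.90 FPKM in A549, 24.19 and 26.32 in H1299, and 11.97 and 22.29 in the H2030-labelled pair. FDFT1, the squalene synthase, was at 79.66 and 74.27, 91.13 and 97.00, and 29.68 and 61.71 FPKM. Every member other than FADS1, like HMGCS1 and FDFT1, had its highest malin ratio in the H2030-labelled pair. Log2 differences of all genes tested also spread more there (SD 0.40, against 0.18 in A549 and 0.16 in H1299). In that pair the epithelial gene sum, mostly KRT8 and KRT18, was 183 and 159 FPKM with the empty and malin vector. The sum of the kidney-line genes, mostly NEFL and NEFM, was 79.9 and 109 FPKM. The part of the column heading and of these markers in the malin ratios of that pair was not tested.

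**Figure D4:**
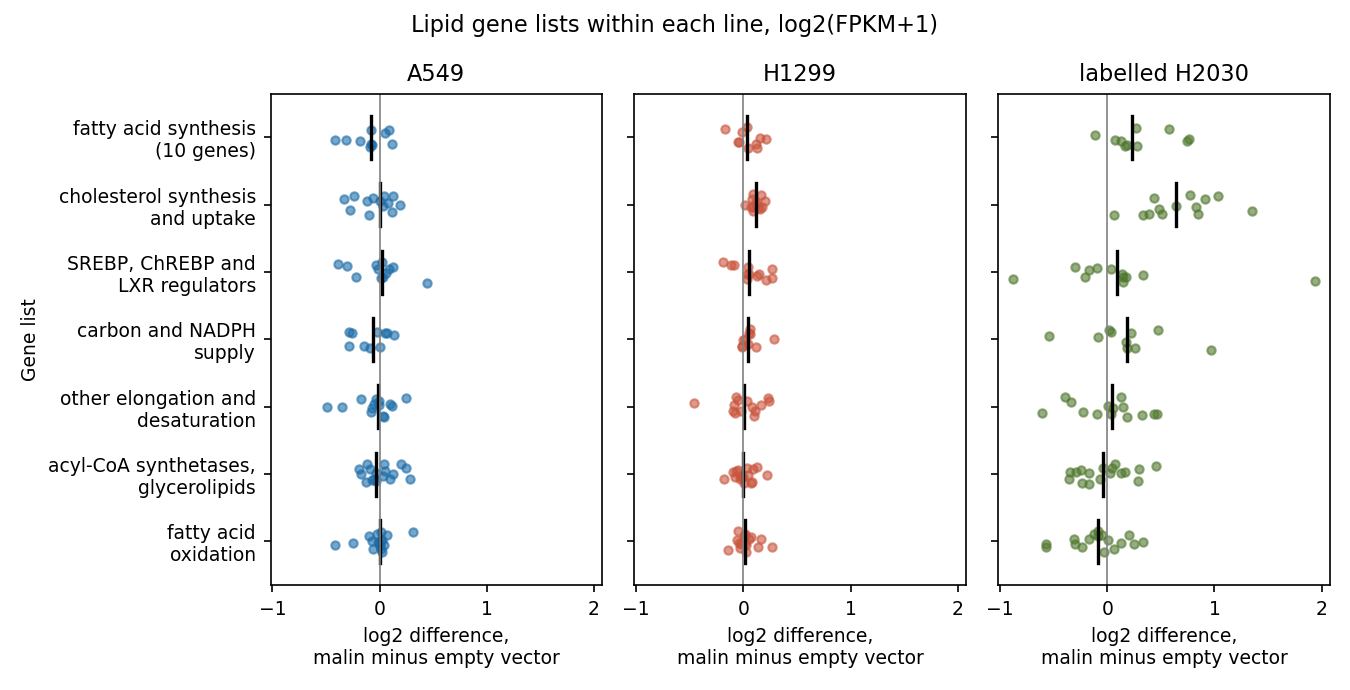
Log2 difference of malin against empty vector on log2(FPKM+1) for the genes of each list in A549, H1299 and the H2030-labelled pair, with a bar at each list's median. The fatty acid synthesis genes have medians of -0.08, 0.04 and 0.23 and the cholesterol genes 0.00, 0.12 and 0.64.

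Of 10 genes that supply carbon and NADPH, 1 was at least 1.5 times higher in the H2030-labelled pair, against 4.28% of all genes tested. This was IDH1, the cytosolic NADPH-yielding isocitrate dehydrogenase, at 12.55 and 25.54 FPKM there, 100.43 and 83.63 in A549, and 24.19 and 24.94 in H1299. Of 9 activators and kinases of acetyl-CoA carboxylase, 1 was higher and 2 were lower in all 3 lines, beside 1345 and 1380 of the 12182 genes tested. PRKAB1, a regulatory subunit of AMP-activated kinase, was at 23.00 and 14.19 FPKM in the H2030-labelled pair, and MID1IP1, an activator of the carboxylase, was at 23.73 and 17.78 FPKM in A549 with the empty and malin vector.

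Of 14 other elongation and desaturation genes, 1 was lower and 1 higher in all 3 lines, beside 1380 and 1345 of the 12182 genes tested. CYB5A, the electron donor of the desaturases, was at 41.26 and 29.07 FPKM in A549, 26.84 and 19.25 in H1299, and 31.63 and 31.84 in the H2030-labelled pair, with an unadjusted limma p of 0.0425 and an adjusted p of at least 0.927. FADS3, a relative of FADS1 and FADS2, was at 18.77 and 11.97 FPKM in the H2030-labelled pair, opposite in direction to FADS2 there. Median log2 differences in the 3 lines were -0.03, 0.00 and -0.04 for 17 acyl-CoA synthetase and glycerolipid genes, and 0.00, 0.01 and -0.08 for 17 fatty acid oxidation genes. ACADVL, which starts the oxidation of long chains, was at 51.09 and 34.05 FPKM in the H2030-labelled pair. The 7 genes of mitochondrial fatty acid synthesis had medians of 0.10, 0.03 and 0.10, and 3 of them were higher with malin in all 3 lines, as were 1345 of the 12182 genes tested.

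Over the 6 libraries, which share 3 lines and are not independent, the Pearson r of log2(FPKM+1) between members was highest for ACACB with FADS2 (0.98), ACLY with ACACB (0.96) and ACLY with FADS2 (0.96), the genes highest in A549. It was 0.93 for ACSS2 with SCD, both highest in H1299, and lowest for ACSS2 with ACACA (-0.90). Among all other genes tested, those most like FASN were KIAA0232 (r = 0.9985), GANC (0.9972) and KIF20B (0.9962), and those most like SCD were PIAS3 (0.9976), GTDC1 (0.9934) and ALAS1 (0.9907). The single most similar gene was PPP2R1A for ACLY, SPIRE1 for ACSS2, LENG8 for ACACA, CA8 for ACACB, ARRB1 for SCD5, DPH2 for ELOVL6, FMNL1 for FADS1 and PSMD11 for FADS2. With 6 points in 3 clusters and 12182 genes to choose from, these values are a description only.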

How the data were processed

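RNA sequencing was analysed from 6 gene-level tables, 1 per library. The deposited unit is FPKM, per the file headers. Read trimming, quality control, alignment and quantification tools (cutadapt, FastQC, STAR, Cufflinks) and the build hg38 are listed without versions in the submitters' processing notes. Strand use is not given in the labels. FPKM depends on the library total, so abundant genes can shift all others, and overlapping genes can trade fragments.

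Groups followed the vector and cell line in the labels. For 12182 protein-coding genes with a mean of at least 1 FPKM, log2(FPKM+1) entered a linear model in limma 3.58.1 (R 4.3.3) (eBayes with an intensity trend, cell line and vector as terms, 2 residual degrees of freedom), with Benjamini-Hochberg adjustment at 0.05 over all genes. The code was tested on simulated data. Within a line, differences were counted at 1.5-fold without a test. Depth was estimated because no counts were used. Low FPKM values of genes with transcripts of 600 to 2000 bases, multiplied by the length less 100 bases, clustered at multiples of 1 fragment, and 78.6% to 81.4% of 709 to 864 values lay within 0.2 of a whole number. The step was chosen from these same values. The 95% intervals on such numbers are exact binomial and cover counting error only.

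Members and gene lists were chosen with earlier results of these data known. Named were NHLRC1, the members, the genes of each list with the largest mean change (up to 3), and the genes most correlated with a member; some that this rule selects are given by list counts only or are not reported here. Other settings tried were a pseudocount of 0.1 or 5, a filter at 5 FPKM or none, median-of-ratios scaling, quantile normalization, all gene classes, no trend, no line or vector term, and leaving out each line or library. Positions are from GENCODE 29 on GRCh38, and upstream bases from RefSeq. Tables were handled with pandas 2.3.3 and numpy 2.4.6 in Python 3.11.15, exact tests came from scipy 1.17.1, and plots from matplotlib 3.10.9.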

Additional observations from a re-analysis of the deposited data

Results flagged for a closer look

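Several genes had malin ratios on opposite sides of 1 in different lines, each with a 95% counting interval that excluded 1. The differences between lines were not tested, because each line had 1 library per vector. SCD was at 0.750 times its empty-vector level in A549, against 1.16 in H1299 and 1.71 in the H2030-labelled pair. FASN was at 0.954 in A549 and 1.503 in the H2030-labelled pair. FADS2 was at 0.806 in A549 and 1.22 in the H2030-labelled pair. ELOVL6 was at 0.880 in H1299 and 1.22 in that pair. FADS1 was at 0.945 in A549 and 1.09 in H1299. The intervals leave out variation between cultures.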

How the results depend on the processing

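Under every alternative with all libraries, 0 genes were called for malin (0 also at an unadjusted p under 0.05 without the cell line term), and the number over all genes was 0 to 1 when a line was left out. Left-out libraries gave 4559 to 9391 calls between A549 and H1299 (7508 with all) and 5226 to 8980 between H1299 and the H2030-labelled pair (7877 with all). Such fits have 1 residual degree of freedom, and the lone library of a line is assumed to vary like the others. For the members, other settings kept 247 line results on their side of the threshold, lost 12, gained 4 and reversed 4, all differences that had not passed. Those were ACACA (0.19 after median-of-ratios scaling, 0.0167 after quantile normalization) and ELOVL6 (0.20 and 0.0668) between A549 and the H2030-labelled pair.

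With each line left out, malin differences that changed sign ran from -0.0276 to 0.0524 for ACACA, -0.0386 to 0.28 for FASN, -0.10 to 0.49 for SCD, -0.0325 to 0.14 for SCD5, -0.063 to 0.16 for ELOVL6, -0.10 to 0.0233 for FADS1 and -0.18 to 0.11 for FADS2. With each library left out, line differences that changed sign ran from -0.0809 to 0.17 for ACSS2 and -0.27 to 0.0613 for ELOVL6 between A549 and the H2030-labelled pair, and from -0.11 to 0.51 for FASN between H1299 and that pair. Pairs follow the cell line, which is a term of the fit. Depth limits ACACB in H1299 most.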
